A study of Mus musculus with 8 samples.

Results

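The annexins are a family of calcium-dependent, phospholipid-binding proteins, and 9 of the 13937 genes in the count table belong to it: ANXA1, ANXA2, ANXA3, ANXA4, ANXA5, ANXA6, ANXA7, ANXA8 and ANXA11, written below as mouse genes (Anxa1 and so on). The members were chosen by their symbols alone, as all annexin rows of that table, and the family was picked as a group with earlier results of these data known. No measured value decided which annexin row of that table was included, and all 9 passed the filter on low counts that left 13509 genes for testing. How the rows of the count table were chosen before deposit is not given in the sources used here. Anxa9 and Anxa13 are not among them. Bulk RNA was sequenced from primary astrocytes grown from the brains of C57BL/6 pups at postnatal day 1, WT or RGC-32 KO (KO below). RGC-32, encoded by Rgcc, takes part in TGF-β signaling. The astrocytes of each genotype were left untreated (control) or stimulated with TGF-β at 10 ng/ml for 24 h, which gave 4 groups of 2 biological replicates (8 libraries). The cultures are the adherent layer that remained after shaking, were deprived of serum overnight before stimulation, and come from pups whose number and sex the sources used here do not give. The question was how TGF-β changes astrocytes with and without RGC-32.

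Annexins share a core of repeats that bind acidic phospholipids when calcium rises, and differ in the N-terminal tail, which holds the binding sites for their partners. Anxa1 is a glucocorticoid-regulated protein that acts on formyl peptide receptors and limits inflammation. Anxa2 pairs with S100a10 at the plasma membrane, where the complex binds plasminogen and its activator, and Anxa5 binds exposed phosphatidylserine. Several members (Anxa1, Anxa2, Anxa5, Anxa6) take part in sealing torn plasma membranes, and in the brain Anxa1 and Anxa2 have been studied in reactive glia.

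Total counts on genes ran from 14920561 to 18956038 per library, with a median of 15857266, and the 9 annexins took 0.257% to 0.289% of them. The spread between replicates exceeded sampling noise in the 4 groups (chi-square divided by its degrees of freedom, 6.37 to 10.5). The targeted gene Rgcc had 80 and 94 counts in WT control, 215 and 362 in WT TGF-β, 61 and 28 in KO control, and 64 and 26 in KO TGF-β. Rgcc was thus lower in every KO library than in every WT library of the same treatment, but not at 0, and which part of the gene the KO lacks is not given in the sources used here. All 10 astrocyte markers were detected, and 1 of them passed as lower with TGF-β in each genotype. Among all genes, 5.65% were called lower in WT and 4.93% in KO. At an unadjusted p under 0.05, edgeR had 8 of the 10 in each genotype, beside 44.3% and 41.2% of all genes. At an edgeR adjusted p under 0.05, Aqp4, Slc1a3, Slc1a2, Aldh1l1, Sox9 and Atp1b2 fell in both genotypes. Aldoc fell by this measure in WT only, and Gja1 rose in both. The summed CPM of the 10 markers (counts scaled to a common library total with TMM) was 4639 to 4907 in WT control. It was 3682 to 3783 in WT TGF-β, 5365 to 6137 in KO control and 4513 to 4840 in KO TGF-β.

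TGF-β had a very unequal effect on the family. Anxa8 rose about an order of magnitude in both genotypes, and no other annexin passed the threshold of 0.6 in absolute log2 fold change and 0.05 in adjusted p (edgeR quasi-likelihood test, Benjamini-Hochberg adjustment over the 13509 genes). In WT this was 1 of 9 annexins higher, where 7.72% of all genes tested were called higher, and 0 of 9 lower, where 5.65% were called lower. In KO it was again 1 of 9 higher against 6.61% of all genes, and 0 of 9 lower against 4.93%. The 9 annexins had a median change of -0.04 on the log2 scale in WT and of 0.02 in KO, beside medians over all genes of -0.00 and 0.00. Counting an adjusted p under 0.05 at any fold, 2 annexins rose and 3 fell in WT, with 18.6% of all genes higher and 14.3% lower. In KO, 2 rose and 2 fell, with 16.6% of all genes higher and 11.8% lower. At an unadjusted p under 0.05, edgeR had 2 annexins higher and 4 lower in WT, beside 24% and 20.4% of all genes, and 3 higher and 3 lower in KO, beside 22.7% and 18.6%. With DESeq2 and with limma-voom as well, Anxa8 was the 1 annexin past the threshold in each genotype. DESeq2 called 6.54% of all genes higher in WT and 5.6% in KO, and limma-voom 7.68% and 6.6%. Of the genes called over the whole table, 57.7% were higher in WT and 57.3% in KO, which became 44.8% and 45.5% with upper quartile scaling.

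The sequences just before the start sites are given for the annexin with the strongest rise (Anxa8), the other annexin that rose in both genotypes (Anxa5) and the one with the strongest fall (Anxa11). Each run is the 250 bases before the RefSeq start (GRCm38.p6), 5′ to 3′ on the strand of the gene, and capitals mark a match to a searched motif.
Anxa8, chr14:34085729-34085978, plus strand: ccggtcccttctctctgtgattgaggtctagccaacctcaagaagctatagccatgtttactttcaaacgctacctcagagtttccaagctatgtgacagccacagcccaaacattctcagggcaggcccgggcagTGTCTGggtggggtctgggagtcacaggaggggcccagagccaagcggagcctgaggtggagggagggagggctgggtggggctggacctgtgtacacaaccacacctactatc
Anxa5, chr3:36475888-36476137, minus strand: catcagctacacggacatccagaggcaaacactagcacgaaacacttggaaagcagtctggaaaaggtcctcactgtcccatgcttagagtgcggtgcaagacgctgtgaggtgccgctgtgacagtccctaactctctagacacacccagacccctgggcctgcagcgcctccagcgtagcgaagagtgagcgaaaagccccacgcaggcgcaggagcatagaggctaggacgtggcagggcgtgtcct
Anxa11, chr14:25841905-25842154, plus strand: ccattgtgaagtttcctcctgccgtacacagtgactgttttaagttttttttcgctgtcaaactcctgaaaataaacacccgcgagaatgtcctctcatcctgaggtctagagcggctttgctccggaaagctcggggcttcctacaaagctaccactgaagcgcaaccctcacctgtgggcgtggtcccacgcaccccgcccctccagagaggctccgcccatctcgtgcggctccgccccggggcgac
The motifs, searched on both strands, were the SMAD element GTCTAGAC, the CAGA box core CAGACA that SMAD3 and SMAD4 can bind, the AP-1 element TGANTCA and the TEAD core GGAATG. The promoter table held 9 windows for 7 of the annexins (Anxa1, Anxa2, Anxa4, Anxa5, Anxa7, Anxa8 and Anxa11), with 2 windows each for Anxa4 and Anxa7. A CAGA core was found in 1 of the 9 windows, that of Anxa8, on the opposite strand with its first base 114 bases before the start. The same core was in 17.1% of all 32851 windows of this length. An AP-1 element was found only in the window of Anxa2, against 6.75% of all windows, and a TEAD core only in that of Anxa1, against 12.6%. The SMAD element was in 0 of the 9 windows and in 0.167% of all. A match is a stretch of letters and not a shown binding site.

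Anxa8 (ENSMUSG00000021950), a little-studied annexin linked to late endosomes and the actin cytoskeleton, lies at chr14:34085981-34100571 on the plus strand (GRCm38). In counts, WT control had 147 and 134, WT TGF-β 1709 and 2043, KO control 145 and 120, and KO TGF-β 1116 and 1118. Scaled to CPM, these were 9.48 and 7.998 in WT control, 94.5 and 131 in WT TGF-β, 9.25 and 7.10 in KO control, and 74.8 and 73.9 in KO TGF-β. All 4 stimulated libraries lay far above all 4 unstimulated ones, and both WT TGF-β libraries lay above both KO TGF-β libraries. The log2 fold change with TGF-β was 3.69 (SE 0.185, 12.9-fold, edgeR adjusted p = 6.19e-05) in WT. In KO it was 3.19 (SE 0.187, 9.11-fold, edgeR adjusted p = 0.000104). Among the 13509 genes tested, this was the rise of rank 8 in WT and of rank 20 in KO. In bulk RNA, more cells that express a gene and more of its mRNA per cell cannot be told apart.

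**Figure D1:**
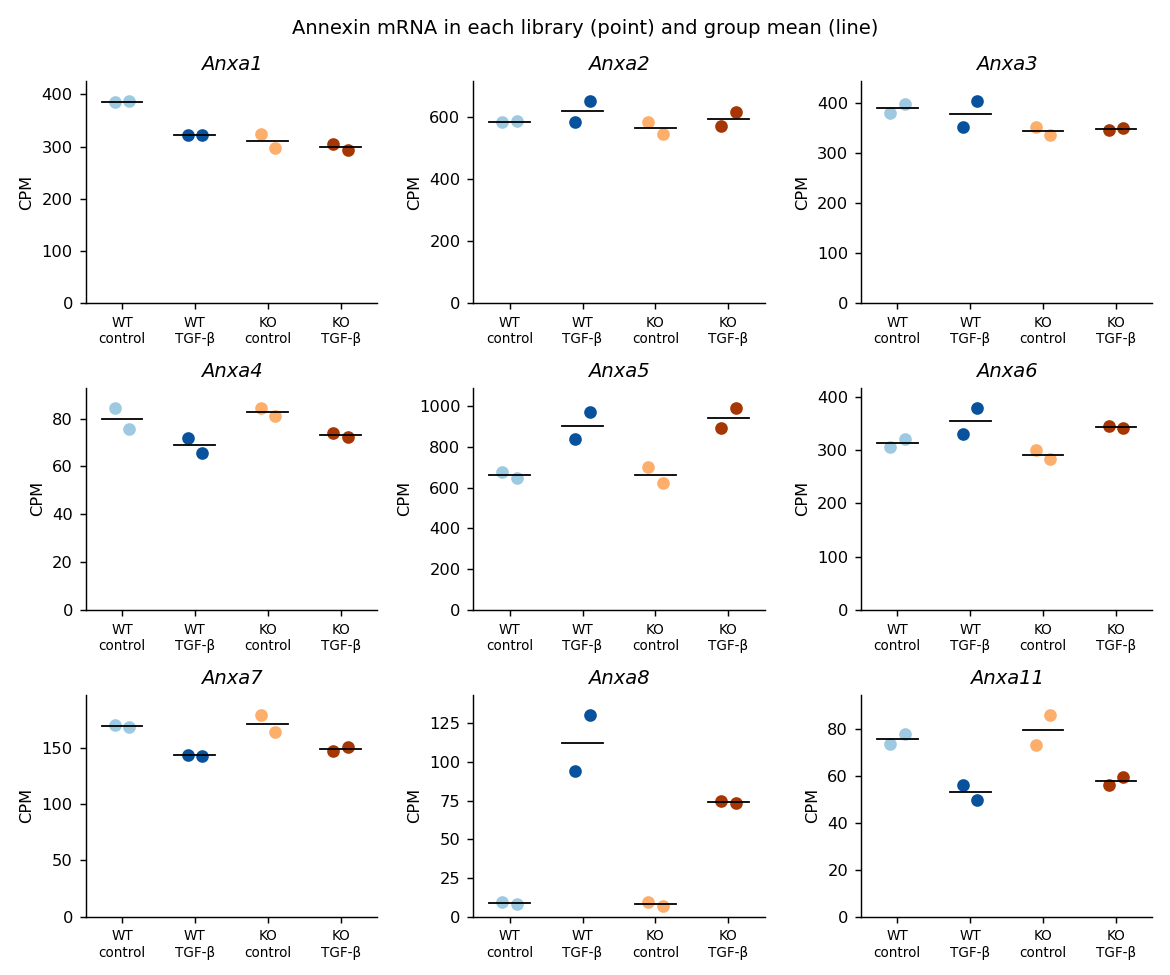
Level of each of the 9 annexins in CPM (linear axis from 0, a scale of its own for each gene) in the 4 groups, with 1 point per library and a line at the group mean, n = 2. Anxa8 is the annexin with stimulated libraries far above the unstimulated ones (73.9 to 131 against 7.10 to 9.48 CPM), while the points of Anxa2 and Anxa3 overlap between treatments.

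Anxa5 (chr3:36448923-36475894, minus strand), the phosphatidylserine-binding annexin used as a label of dying cells, was the other member higher with TGF-β in both genotypes, by less than the fold threshold. Its CPM was 677 and 645 in WT control, 838 and 970 in WT TGF-β, 699 and 622 in KO control, and 891 and 990 in KO TGF-β. Every stimulated library was above every unstimulated one. The log2 fold change was 0.45 (SE 0.10, edgeR adjusted p = 0.0119) in WT and 0.51 (SE 0.10, edgeR adjusted p = 0.00849) in KO. In WT the edgeR adjusted p rose to 0.0975 when WT TGF-β replicate 2 was left out, and to 0.0757 for WT control replicate 2. In KO it rose to 0.0782 when KO TGF-β replicate 2 was left out, and to 0.0539 for KO control replicate 2.

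Anxa6 (chr11:54979108-55033445, minus strand), which carries a doubled set of annexin repeats and acts in endocytosis and cholesterol transport, had values in the same direction that missed the edgeR test. Its CPM was 306 and 321 in WT control against 330 and 379 in WT TGF-β, and 301 and 283 in KO control against 346 and 341 in KO TGF-β. The libraries did not overlap between treatments within either genotype. The log2 fold change was 0.18 (SE 0.0778, edgeR adjusted p = 0.116) in WT and 0.24 (SE 0.0779, edgeR adjusted p = 0.0558) in KO. Of these, only the KO value lay near the limit of 0.05 in adjusted p. In WT the DESeq2 adjusted p was 0.230. The WT log2 fold change was 0.28 when WT TGF-β replicate 1 was left out, and 0.06 when WT TGF-β replicate 2 was left out.

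Anxa11 and Anxa7, the annexins with long, disordered N-terminal tails, fell in both genotypes by less than the fold threshold. Anxa11 (chr14:25842156-25886804, plus strand) binds the calcium sensors ALG-2 and S100a6 and tethers RNA granules to lysosomes. It had 73.8 and 78.1 CPM in WT control, 56.1 and 49.9 in WT TGF-β, 73.2 and 86.1 in KO control, and 55.9 and 59.4 in KO TGF-β, so that every stimulated library was below every unstimulated one. The log2 fold change of Anxa11 was -0.52 (SE 0.0934, edgeR adjusted p = 0.00504) in WT and -0.47 (SE 0.0933, edgeR adjusted p = 0.0091) in KO. Without KO TGF-β replicate 1 the latter had an edgeR adjusted p of 0.0575. On the deposited FPKM values (read fragments divided by transcript length and library size), with limma on log2(FPKM + 1), Anxa11 passed the fold threshold in both genotypes, at -0.63 in WT and -0.65 in KO. With upper quartile scaling it passed in WT at -0.60. Exons of Anxa11 share 113 bases with those of the antisense gene Anxa11os, and unstranded reads cannot tell the strands apart there.

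Anxa7 (chr14:20455260-20480133, minus strand), known for calcium-driven membrane fusion and for binding sorcin, had 170 and 169 CPM in WT control, 144 and 143 in WT TGF-β, 179 and 164 in KO control, and 147 and 151 in KO TGF-β. The treatments did not overlap in either genotype. Its log2 fold change was -0.24 (SE 0.0587, edgeR adjusted p = 0.0173) in WT and -0.20 (SE 0.0588, edgeR adjusted p = 0.0372) in KO. Both calls were lost with DESeq2, at an adjusted p of 0.0507 in WT and 0.119 in KO. In WT the edgeR adjusted p ran from 0.0566 to 0.0789 when any of the 4 WT libraries was left out. In KO it ran from 0.0539 to 0.185 when any library other than WT control replicate 2 and KO control replicate 2 was left out, and it was 0.0822 with the 4 KO libraries alone.

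Anxa1 (chr19:20373428-20390944, minus strand), the anti-inflammatory annexin, fell with TGF-β in WT. It had 386 and 387 CPM in WT control, 323 and 322 in WT TGF-β, 325 and 297 in KO control, and 304 and 294 in KO TGF-β. The WT control libraries stood above the other 6, and the KO treatments overlapped. The log2 fold change was -0.26 (SE 0.0630, edgeR adjusted p = 0.0167) in WT and -0.06 (SE 0.0631, edgeR adjusted p = 0.546) in KO. The WT call had an edgeR adjusted p of 0.0581 to 0.0722 when any of the 4 WT libraries was left out. On log2(FPKM + 1) the KO change was -0.25 with a limma adjusted p of 0.017. The median log2 change of all genes on FPKM was -0.06 in both genotypes, and -0.11 with a pseudocount of 0.1. The part of this shift in the change of Anxa1 was not tested.

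Like Anxa6, the other 3 annexins did not pass at any fold with edgeR, and for Anxa4 this depended on the settings. Anxa2 (chr9:69453620-69491795, plus strand) had 582 and 586 CPM in WT control, 585 and 650 in WT TGF-β, 582 and 545 in KO control, and 571 and 616 in KO TGF-β, with overlap in both genotypes. Its log2 fold change was 0.08 (95% confidence interval -0.10 to 0.26) in WT and 0.08 (-0.11 to 0.26) in KO, and its sign turned with upper quartile scaling and on FPKM. Anxa3 (chr5:96793339-96845966, plus strand), an annexin known from neutrophils and microglia, had 381 and 397 CPM in WT control, 352 and 404 in WT TGF-β, 351 and 336 in KO control, and 345 and 350 in KO TGF-β. Its treatments overlapped too, with a log2 fold change of -0.04 (-0.22 to 0.13) in WT and 0.02 (-0.16 to 0.20) in KO, the latter being negative with upper quartile scaling and on FPKM. Anxa4 (chr6:86736840-86793584, minus strand), an epithelial annexin that orders membrane lipids, had 84.2 and 75.5 CPM in WT control, 71.8 and 65.7 in WT TGF-β, 84.4 and 81.2 in KO control, and 74.1 and 72.5 in KO TGF-β. Stimulated libraries of Anxa4 were below unstimulated ones, with a log2 fold change of -0.22 (edgeR adjusted p = 0.0537) in WT and -0.18 (edgeR adjusted p = 0.107) in KO. With upper quartile scaling these were -0.30 and -0.26, with an edgeR adjusted p of 0.0146 and 0.0291. In WT the edgeR adjusted p of Anxa4 was also under 0.05 with RLE scaling (0.0455) and with at least 10 counts in every library (0.0441). It was 0.0881 with the WT libraries alone, and the DESeq2 adjusted p was 0.167 in WT and 0.288 in KO. When a library was left out, the WT log2 fold change of Anxa4 ran from -0.31 (WT control replicate 2) to -0.13 (WT control replicate 1). Exons of Anxa2, Anxa3 and Anxa4 share 98, 112 and 75 bases with those of the overlapping genes Gm16144, Gm42603 and Gm44036.

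**Figure D2:**
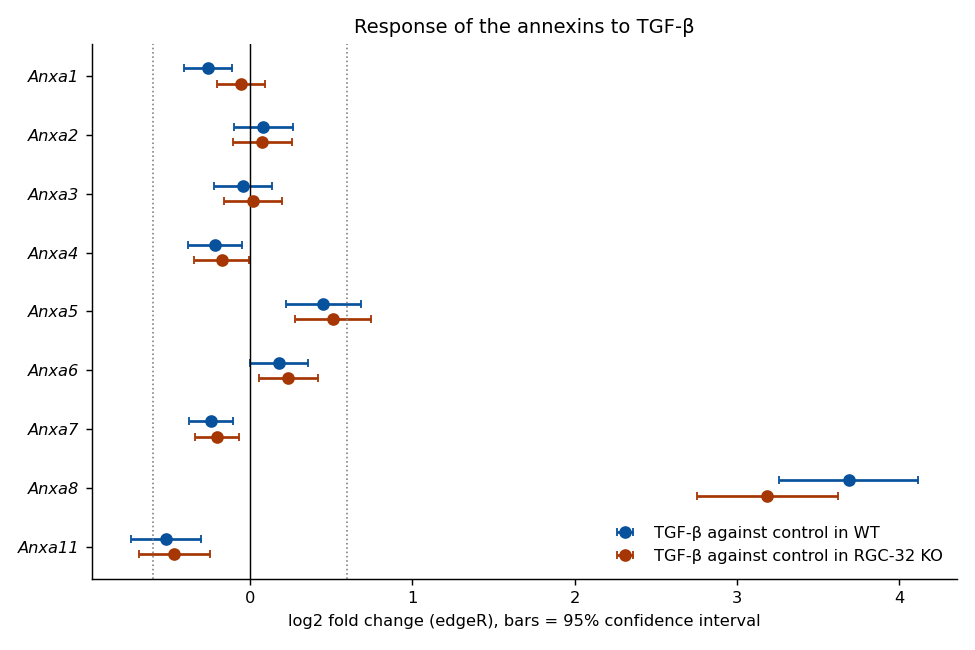
Log2 fold change (x axis) of each annexin (y axis) with TGF-β against control in WT and KO, n = 2 libraries per group. Bars are 95% confidence intervals derived from the edgeR test. Dotted lines mark the fold threshold of 0.6 in each direction, and only the points of Anxa8, 3.69 in WT and 3.19 in KO, lie beyond it.

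Levels of different annexins were compared per length, by the deposited FPKM. In WT control the order of the mean FPKM was Anxa2 (302), Anxa5 (263), Anxa1 (192), Anxa3 (169), Anxa6 (72.4), Anxa7 (44.2), Anxa11 (36.9), Anxa4 (30.5) and Anxa8 (3.61), and no neighbours in it overlapped between replicates. The order was the same in KO control, from Anxa2 at 301 to Anxa8 at 3.54. There Anxa1 (154 and 169 FPKM) and Anxa3 (153 and 154) nearly met. Averaged over all libraries, Anxa5 (301 FPKM) and Anxa2 (295) ranked 144 and 148 of 18644 genes, and Anxa8 (19.2) ranked 3592. With TGF-β, Anxa5 became the first annexin, at 329 ± 26.9 FPKM (SD, n = 2) in WT and 337 ± 10.5 in KO, ahead of Anxa2 at 297 ± 18.3 and 280 ± 18.2. The libraries of Anxa5 and Anxa2 nearly met in WT (lowest of Anxa5 310.0, highest of Anxa2 309.9) and stood apart in KO. Counts per kilobase of exon placed Anxa5 before Anxa2 in all 4 groups, so that the order of these 2 in control depends on the length used.

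Anxa8 moved from the last place to rank 6 in WT TGF-β (41.9 ± 5.30 FPKM) and to rank 7 in KO TGF-β (28 ± 3.58), where its libraries overlapped those of Anxa4 and Anxa11. Anxa11 moved from rank 7 to rank 9, at 23.4 FPKM in WT and 25.4 in KO, where its libraries overlapped those of Anxa4 (23.9 and 25.9). Anxa3 and Anxa1 also overlapped in both stimulated groups, at 153 and 145 FPKM in WT and 138 and 136 in KO. Anxa8 made up 0.377% and 0.27% of the summed annexin FPKM in WT control and 0.372% and 0.28% in KO control. After TGF-β its share was 3.56% and 3.88% in WT, and 2.88% and 2.33% in KO. Thus even the strongest rise left Anxa8 a small part of the family, and the summed FPKM of the 9 annexins stayed within 1058 to 1175 in all libraries. Anxa2 and Anxa5 together held 50.6% to 58.1% of it.

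**Figure D3:**
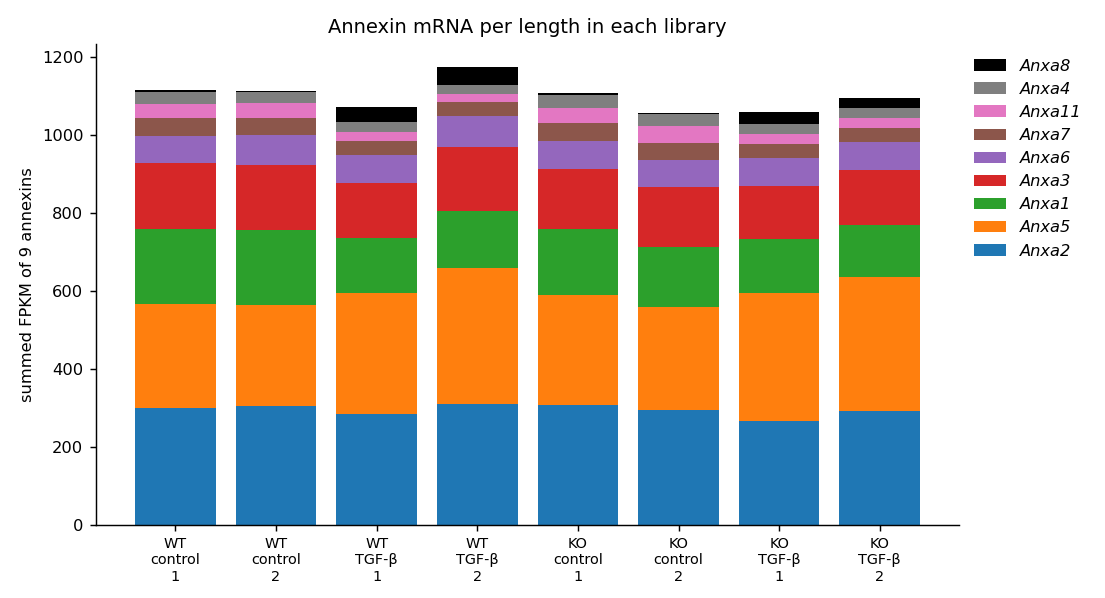
Summed FPKM of the 9 annexins in each of the 8 libraries (linear axis from 0), split by gene. The bars reach 1058 to 1175, Anxa2 and Anxa5 fill 50.6% to 58.1% of each, and the black cap of Anxa8 is 0.27% to 0.377% of a control bar and 2.33% to 3.88% of a TGF-β bar.

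The genotypes were then compared with each other. With edgeR, 0 of 9 annexins passed the threshold in control, where 0.037% of all genes did, and 0 of 9 after TGF-β, where 0.0444% did. Averaged over both treatments it was 0 of 9 against 0.126%, and in the interaction of genotype and TGF-β 0 of 9 against 0% of all genes. At an unadjusted p under 0.05, edgeR had 2 annexins in control (Anxa1 and Anxa3), 1 after TGF-β (Anxa8), 3 in the average (Anxa1, Anxa3 and Anxa8) and 0 in the interaction. Over all genes these shares were 6.84%, 11.7%, 15% and 2.82%. With limma-voom 0 annexins passed in the 4 comparisons. With DESeq2 1 passed after TGF-β, Anxa8, where 0.237% of all genes did, and 0 in the others.

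The level of Anxa8 in WT TGF-β was 1.51 times that in KO TGF-β, a log2 difference of 0.60 that did not pass with edgeR (SE 0.152, 95% confidence interval 0.25 to 0.95, higher in 2 of 2 libraries, edgeR adjusted p = 0.219). DESeq2 gave 0.60 with an adjusted p of 0.0316. It was the 1 alternative of 20 in which this difference passed. Without WT TGF-β replicate 2, the higher of the pair at 131 CPM, the log2 difference was 0.33 (edgeR adjusted p = 0.691), and without WT TGF-β replicate 1 it was 0.82 (edgeR adjusted p = 0.142). In control the log2 difference of Anxa8 was 0.10 (-0.41 to 0.61, edgeR adjusted p = 0.965) and its genotypes overlapped. The response itself differed by 0.50 (SE 0.268, -0.12 to 1.12, edgeR adjusted p = 1), so a difference between genotypes in the response of Anxa8 was not shown. This interval holds 0 as well as a response more than 2-fold larger in WT. The comparisons of Anxa8 after TGF-β and of its responses share the same stimulated libraries.

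Anxa1 had no overlap between genotypes in control, and WT control lay above KO control by 0.31 on the log2 scale without passing (SE 0.0630, 1.24-fold, edgeR adjusted p = 0.363). After TGF-β the difference was 0.11 (SE 0.0631, edgeR adjusted p = 0.548), with both WT libraries (323 and 322 CPM) above both KO libraries (304 and 294). The average over both treatments was 0.21 (SE 0.0446, edgeR adjusted p = 0.0913), and DESeq2 gave 0.21 with an adjusted p of 0.0443, under the fold threshold. The interaction of Anxa1 was -0.20 (SE 0.0892, edgeR adjusted p = 1). The fall of Anxa1 in WT and its missing call in KO were therefore not shown to differ. Values of astrocyte and meningeal fibroblast markers also differed between genotypes without passing, and their part in the differences of Anxa1 and Anxa8 was not tested. With edgeR, DESeq2 and limma-voom 0 astrocyte and 0 meningeal fibroblast markers passed between genotypes. At an unadjusted p under 0.05 in the average over both treatments, where 15% of all genes were, edgeR had 9 of 10 astrocyte markers lower in WT and 5 of 11 fibroblast markers higher. Among them were the astrocyte filament gene Gfap at -0.51 (edgeR adjusted p = 0.103) and the collagen gene Col1a2 at 0.59 (edgeR adjusted p = 0.0509).

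The values of Anxa3 in WT also lay above those in KO without passing, by 0.18 in control (SE 0.0765, edgeR adjusted p = 0.725) and 0.12 after TGF-β (SE 0.0765, edgeR adjusted p = 0.599), with no overlap of libraries in either. For the other 6 annexins the log2 difference between genotypes lay between -0.12 (Anxa11 after TGF-β) and 0.10 (Anxa6 in control). Among them, genotypes also did not overlap for Anxa2 and Anxa6 in control, both higher in WT. The same held for Anxa4 and Anxa7 after TGF-β, both lower in WT. The share of all genes without overlap was not counted, so no difference between genotypes is read from it for any annexin.

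**Figure D4:**
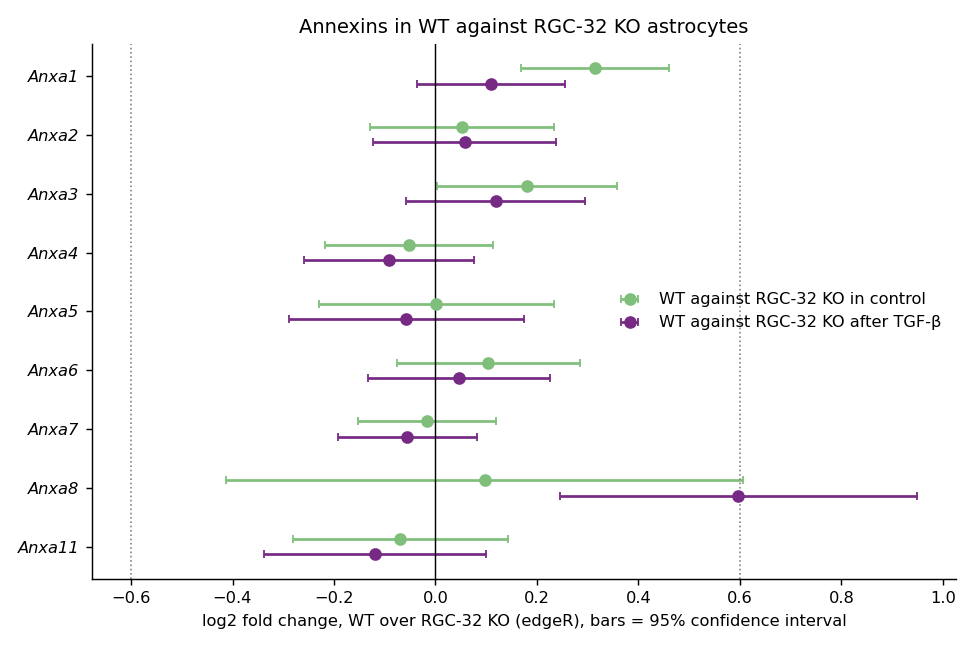
Log2 difference of WT over KO (x axis) for each annexin (y axis) in control and after TGF-β, n = 2 libraries per group. Bars are 95% confidence intervals derived from the edgeR test, and dotted lines mark the fold threshold of 0.6. The points of Anxa8 after TGF-β (0.60) and Anxa1 in control (0.31) lie farthest to the right, and neither had an adjusted p under 0.05.

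Genes that work with annexins were counted from 4 lists that were chosen with earlier results of these data known. Of 14 S100 proteins, the small calcium sensors that bind annexin tails, 9 were tested and 0 passed with edgeR or limma-voom in either TGF-β comparison. At an unadjusted p under 0.05 edgeR had 4 of 9 in WT and 3 of 9 in KO, where 44.3% and 41.2% of all genes were, and DESeq2 called 1 lower in WT (S100a4), beside 4.36% of all genes, and 0 in KO. Their log2 fold changes had a median of -0.18 in WT and -0.14 in KO. S100a10, the partner of Anxa2, had 132 and 137 CPM in WT control, 122 and 115 in WT TGF-β, 133 and 141 in KO control, and 125 and 124 in KO TGF-β. Its stimulated libraries were below its unstimulated ones, by a log2 fold change of -0.18 (edgeR adjusted p = 0.0449) in WT and -0.14 (edgeR adjusted p = 0.106) in KO. Of 18 genes of membrane repair and annexin partners, which include dysferlin, calpains, caveolae and ALG-2, 16 were tested and 0 passed with edgeR, DESeq2 or limma-voom, while edgeR had 7 of 16 in each genotype at an unadjusted p under 0.05, close to the shares of all genes just given. Their median was 0.04 in WT and 0.06 in KO.

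Of 12 annexin A1 receptors and phospholipase A2 pathway genes, 10 were tested and 2 passed, both higher and both in each genotype. They were the cyclooxygenases Ptgs2, at 1.15 in WT and 1.43 in KO (edgeR adjusted p = 0.00738 and 0.0039), and Ptgs1, at 0.67 and 0.70 (0.00654 and 0.00685). These make prostaglandins from the arachidonic acid that phospholipase A2 frees. Ptgs2 had 95.8 and 102 CPM in WT control against 253 and 185 in WT TGF-β, and 61.4 and 100.1 in KO control against 238 and 196 in KO TGF-β, without overlap in either genotype. The median of this list was -0.18 in WT and -0.15 in KO. Over all genes, 7.72% were called higher in WT and 6.61% in KO. At an unadjusted p under 0.05 edgeR had 3 of the 10 in WT and 5 in KO. Of all genes these shares were 44.3% and 41.2%.

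Of 22 genes of phosphatidylserine exposure and recognition, 19 were tested. In WT, 1 rose, Mfge8, a secreted bridge to phosphatidylserine, at 0.74 (edgeR adjusted p = 0.00747), and 1 fell, the scramblase-family gene Plscr4, at -0.80 (edgeR adjusted p = 0.00183). In KO 0 rose, with Mfge8 at 0.55 (edgeR adjusted p = 0.0274), and 1 fell, Plscr4 at -0.81 (edgeR adjusted p = 0.00197). The list had a median of 0.01 in both. Over all genes, 7.72% were called higher and 5.65% lower in WT, and 6.61% and 4.93% in KO. At an unadjusted p under 0.05 edgeR had 9 of the 19 in each genotype, beside 44.3% and 41.2% of all genes. In the comparisons between genotypes and in the interaction, 0 genes of the 4 lists passed with edgeR, DESeq2 or limma-voom. At an unadjusted p under 0.05 edgeR had at most 4 genes of a list, in membrane repair and annexin partners averaged over both treatments (4 of 16, beside 15% of all genes).

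The genes whose log2 CPM was most like that of Anxa8 over the 8 libraries, by Pearson's r, were Fstl3 (0.9988), Prss57 (0.9985), Copg1 (0.9983), Ggcx (0.9972) and Lman1 (0.9968). The 8 points share 4 groups, so this r mainly describes the step between treatments. Fstl3, a secreted inhibitor of activin, had a log2 fold change with TGF-β of 2.75 in WT and 2.59 in KO, and Prss57 of 2.63 and 2.28. The other 3 genes (COPI coat, vitamin K-dependent carboxylase and a cargo receptor of the endoplasmic reticulum) had smaller changes, of 0.65 to 0.87 in WT and 0.61 to 0.79 in KO.

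Some markers of other cells that the cultures could hold also changed with TGF-β, some upward and some downward. Their part in the rise of Anxa8 was not tested. Of 12 meningeal fibroblast markers, 11 were tested. In WT 3 were higher with TGF-β (Col1a1, Col1a2 and Aldh1a2) and 3 lower (Dcn, Ogn and Pdgfra), and in KO 3 were higher and 1 lower. Of all genes, 7.72% were called higher and 5.65% lower in WT, and 6.61% and 4.93% in KO. The summed CPM of the 12 was 5598 to 7030 in WT control, 10200 to 11600 in WT TGF-β, 4738 to 4869 in KO control and 7963 to 8004 in KO TGF-β. Without the collagens Col1a1, Col1a2 and Col3a1, a choice made after seeing the values, the sum of the other 9 was 1947 to 2235, 1885 to 2206, 1742 to 1781 and 1829 to 1891 in the same order.

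The summed oligodendrocyte lineage markers also moved, from 216 to 251 CPM in WT control to 453 to 538 in WT TGF-β, and from 207 to 248 in KO control to 366 to 482 in KO TGF-β. Of this list Cspg4, which pericytes express as well, passed in WT, from 38.5 and 25.4 CPM to 257 and 302. Cspg4 passed in KO too, going from 33.9 and 24.2 to 153 and 220 CPM. Sox10, which defines the lineage, was at 0.119 to 1.01 CPM in all libraries. Of 12 microglia or macrophage markers (1165 to 1666 CPM summed), 0 passed in either genotype with edgeR or limma-voom and 1 in each with DESeq2 (Cd68, lower, beside 4.36% of all genes in WT and 3.59% in KO). At an unadjusted p under 0.05 edgeR had 2 of the 12 in WT and 3 in KO, below the 44.3% and 41.2% of all genes. The sums of the choroid plexus (44.6 to 107 CPM), arachnoid barrier (6.52 to 75.6) and ependymal (265 to 490) markers were lower in every stimulated than in every unstimulated library, and so were those of the endothelial markers (67.8 to 127). Of these, 0 choroid plexus markers were called higher and 2 of 5 lower in each genotype, 1 of 5 arachnoid markers lower in each, 5 of 7 ependymal markers lower in WT and 3 in KO, and, of 6 endothelial markers, 2 higher and 1 lower in WT against 1 higher and 2 lower in KO. Neuronal markers summed to 97.2 to 138 CPM, with 1 of 4 higher in each genotype. Beside these edgeR calls, 7.72% of all genes were called higher and 5.65% lower in WT, and 6.61% and 4.93% in KO.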

How the data were processed

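The authors aligned unstranded reads with STAR (build mm10, in the submitters' processing notes) and deposited raw counts per gene symbol for 13937 genes, and FPKM values from Cufflinks for 18644 genes. The counting program and its annotation are not given in the sources used here. The authors also deposited tables of fold changes and p-values of their own DESeq2 comparisons, which were not used. Libraries were grouped by their labels.

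Counts were tested in R 4.3.3 with edgeR 4.0.16 (filterByExpr, TMM, a quasi-likelihood model with 4 group means over all 8 libraries, two-sided), with the Benjamini-Hochberg adjustment over 13509 genes. DESeq2 1.42.0 and limma 3.58.1 served as alternatives. Scripts were tested on simulated data. Each SE belongs to the log2 fold change before it, CPM are counts over TMM-scaled library totals, and a prior count of 2 was added for log2 CPM. Gene positions and exon lengths are from GENCODE M21 (GRCm38), and start sites from RefSeq. Intervals and p-values cover the spread between 2 libraries per group, whose origin in separate animals is not given.

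The members and lists were chosen with earlier results of these data known. By rule, every annexin, Rgcc, S100a10 and, of each partner list, at most 4 genes past the threshold with the largest change were named, as were the 5 genes most correlated with Anxa8. Marker genes are named where their list is reported, and S100a4, Cd68, Gfap and Sox10 after their values were seen. Alternatives were other scalings, filters, tools and thresholds, FPKM with limma, a replicate block, and leaving out each library.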

Additional observations from a re-analysis of the deposited data

Results flagged for a closer look

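Anxa13, an annexin that is not a row of the count table, was listed in the FPKM table at a mean of 0.0437 in WT TGF-β and 0.0286 in KO TGF-β, above the control libraries (0.022 and 0.00717 in WT, 0 and 0.00717 in KO). All of these values are very low and the difference was not tested. It stands here because it lies outside the comparisons of the report.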

How the results depend on the processing

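Fold changes followed under alternatives were 26: every annexin with TGF-β in each genotype, and Anxa1 and Anxa8 alone between genotypes and in the interaction. Of their 536 values, 505 kept their direction and side of the threshold, 13 passed it newly and 18 changed sign. The 13 include changes that passed only because the fold threshold was dropped. The 505 include changes that never passed, and moves of the adjusted p across 0.05 at a smaller fold are not counted. At any fold, 5 annexins in WT and 4 in KO had an adjusted p under 0.05 with edgeR. These numbers were 4 and 3 with DESeq2, and 6 and 6 with FPKM. Anxa8 stayed past the threshold under every alternative, with log2 fold changes of 3.23 to 3.91 in WT and 2.68 to 3.37 in KO. The count of annexins past the threshold in WT rose to 2 with upper quartile scaling and with FPKM at a pseudocount of 1 or 0.1, and to 5 with no fold threshold. In KO it rose to 2 with FPKM at either pseudocount and to 4 with no fold threshold. The added gene was Anxa11 with FPKM and with upper quartile scaling. Between genotypes after TGF-β it rose to 1 with DESeq2. Apart from the dropped fold criterion, the cause was not tested.

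Changes of sign were as follows. Anxa2 in WT was -0.0054 with upper quartile scaling, -0.0257 and -0.0258 with FPKM at a pseudocount of 1 and 0.1, and -0.0137 to 0.16 when a library was left out. In KO it was -0.0083 with upper quartile scaling, -0.108 with FPKM, and -0.0025 to 0.13 when a library was left out. Anxa3 in WT was -0.16 to 0.059 when a library was left out. In KO it was -0.065 with upper quartile scaling, -0.00025 with at least 10 counts in every library, -0.143 and -0.144 with FPKM, and -0.0143 to 0.033 when a library was left out. Anxa8 between genotypes in control was -0.085 to 0.30 when a library was left out. The share of Anxa8 in the annexin level per length was 5.34% in WT TGF-β and 3.601% in KO TGF-β by counts per kilobase, against a mean of 3.73% and 2.60% by FPKM.

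The labels give no pairing by replicate number. The replicate differences of WT and KO correlated positively within a treatment (0.491 in control, 0.253 after TGF-β) and negatively in the 4 pairs of groups across treatments (-0.343 to -0.507), so the numbers may be crossed between treatments. With a replicate block, 1 annexin passed the fold threshold in WT and 1 in KO, as without it, over 957 higher and 659 lower genes in WT and 814 and 555 in KO. At any fold the block moved Anxa4 in WT to an edgeR adjusted p of 0.0469 and Anxa7 in KO to 0.0661. The pairing crossed, chosen after seeing the data, gave 1 annexin in each, over 1167 and 938 genes in WT and 1040 and 812 in KO, and at any fold 6 annexins in WT (Anxa4 added) and 5 in KO (Anxa6 added), against 5 and 4 with no block. With 2 libraries per group, leaving out 1 leaves a lone library that is assumed to vary like the other groups. The lowest annexin counts were those of Anxa8 in control (120 to 147), where its interval between genotypes was the widest of the 9 annexins.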

Other observations

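Anxa9, which is also outside the count table, had an FPKM of 1.085 and 1.123 in WT control, 0.634 and 0.576 in WT TGF-β, 1.04 and 0.969 in KO control, and 0.731 and 0.786 in KO TGF-β. The stimulated libraries were below the unstimulated ones in both genotypes, with no test of the difference.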
